A study of Mus musculus with 38 samples.

Results

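The genes described here are 44 imprinted genes of the mouse, chosen by symbol from 19 imprinted regions and read by region and by the parental allele that is expressed. Of these, 43 were found among the 29267 genes of the tables, and Peg13 was not analysed here. By the literature, 17 of the 44 are expressed from the maternal allele, 24 from the paternal allele, and 3 (Gnas, Blcap and Inpp5f) from one or the other allele depending on the isoform. The tables hold 1 value per gene and library and no allele counts, so the expressed allele is background here and was not measured. A change in level therefore cannot be assigned to the usually active or the usually silent copy.

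In most cases, genomic imprinting marks a single parental copy of a gene with DNA methylation laid down in the egg or the sperm. This mark is kept through the waves of demethylation in the early embryo. Most imprinted genes lie in clusters under an imprinting control region, and many clusters pair a protein gene expressed from one allele with a long non-coding RNA expressed from the other. Several members regulate fetal and placental growth, with paternally expressed growth promoters such as Igf2 set against maternally expressed restraints such as Igf2r, Grb10, Cdkn1c and Phlda2.

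The 38 RNA-seq libraries came from mouse cells in and between the naive state of pluripotency, which resembles the epiblast before implantation, and the primed state, which resembles the epiblast after it. The naive groups were embryonic stem cells (ESC, n = 5, of which 2 are labelled CBA/CaJ X C57BL/6J and 3 carry no strain) and induced pluripotent cells (kiPSC, n = 2). The primed groups were embryo-derived epiblast stem cells (EpiSC, n = 4) and a stable EpiSC line that overexpresses Klf4 (kEpiSC, n = 2). The study's methods give the same cross of mouse strains for ESC and EpiSC, with OG2 males that carry an Oct4-GFP reporter. Strain was not part of any fit. For the primed to naive transition (PNT), kEpiSC were moved into iCD1, a chemically defined reprogramming medium, and sampled on days 1, 2 and 3 (n = 2 each), or grown in parallel with the JNK inhibitor SP600125, which blocks the kinases that activate c-Jun (JNKi, with 2, 3 and 2 libraries for the 3 days). In the c-Jun experiment, wild-type (WT) and c-Jun-/- (JunKO) ESC had been converted to primed EpiSC-like cells, here iEpiSC (n = 1 per genotype) and kiEpiSC (n = 1 per genotype, read as iEpiSC with the Klf4 transgene), and the kiEpiSC were taken to day 3 in iCD1 or in that medium plus JNKi (2 libraries of each genotype in either medium).

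The study describes Klf4 as driven by a CAG promoter in one place and delivered by lentivirus with drug selection in another, and all PNT groups carry the transgene. JunKO cells were made with paired guides in ESC. The number of clones is not given in the sources used here, so the genotype and the history of the line cannot be told apart. RNA-seq replicates are described as biological in the study, and whether libraries of a group came from separate cultures is not given in the sources used here. Without that, p-values measure only the spread between these libraries. In RNA from whole cultures, fewer cells of a type and less RNA per cell cannot be told apart.

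The libraries held 2164700 to 15944900 expected counts. Jun, the deleted gene, lay at 5.01 to 14.6 TPM (transcript abundance scaled for gene length and library size) in the 6 JunKO libraries and at 40.4 to 240.4 TPM in the 6 WT libraries. Summed over Pou5f1, Sox2 and Nanog, pluripotency markers reached 1823 to 3139 TPM in ESC, EpiSC, kEpiSC and kiPSC, but 81.4 to 83.3 TPM on PNT day 3. The naive markers summed to 1148 to 1655 TPM in kiPSC and 27.3 to 39.2 TPM on day 3, so the day 3 cultures were low in both marker lists. EpiSC replicate 1 and ESC replicate 5 stood apart for several members, and ESC replicates 1 to 4 were quantified with an effective length 73.5 bases shorter than the gene, against 133.05 to 192.14 bases in the other 34 libraries. The comparison of ESC with EpiSC is also given without them.

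The starts of 4 members are printed here for reference. Peg3 and Usp29 start head to head from the same stretch of chromosome 7 and moved in opposite directions in naive cells. Plagl1 had one of the largest rises in naive cells. Kcnq1ot1 is the paternal antisense RNA of the region that holds Cdkn1c and Phlda2, and Airn that of Igf2r, and these 3 maternally expressed genes were lower in JunKO cells on day 3. A part of Kcnq1ot1 or Airn in these falls was not tested. Each window covers 250 bases before and 50 bases after the RefSeq start on GRCm38.p6. For Peg3 (chr7:6730370-6730669, minus strand), capitals mark the 163 bases between its start and that of Usp29. For Plagl1 (chr10:13090582-13090881, plus strand), Kcnq1ot1 (chr7:143296498-143296797, minus strand) and Airn (chr17:12741061-12741360, plus strand), capitals mark each CG pair, the site of DNA methylation.
Peg3: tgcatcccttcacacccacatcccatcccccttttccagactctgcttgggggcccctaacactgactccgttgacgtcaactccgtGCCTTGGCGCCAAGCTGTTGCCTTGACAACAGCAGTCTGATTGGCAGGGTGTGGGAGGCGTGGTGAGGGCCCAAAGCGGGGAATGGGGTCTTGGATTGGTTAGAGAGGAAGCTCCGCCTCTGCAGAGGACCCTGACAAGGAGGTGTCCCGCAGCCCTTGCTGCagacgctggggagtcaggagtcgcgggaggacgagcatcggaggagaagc
Plagl1: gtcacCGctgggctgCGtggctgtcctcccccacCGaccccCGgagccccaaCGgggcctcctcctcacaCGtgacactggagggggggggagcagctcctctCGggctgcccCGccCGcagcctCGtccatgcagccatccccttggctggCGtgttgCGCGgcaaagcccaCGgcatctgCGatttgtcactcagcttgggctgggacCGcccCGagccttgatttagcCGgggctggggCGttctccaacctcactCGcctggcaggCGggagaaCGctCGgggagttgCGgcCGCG
Kcnq1ot1: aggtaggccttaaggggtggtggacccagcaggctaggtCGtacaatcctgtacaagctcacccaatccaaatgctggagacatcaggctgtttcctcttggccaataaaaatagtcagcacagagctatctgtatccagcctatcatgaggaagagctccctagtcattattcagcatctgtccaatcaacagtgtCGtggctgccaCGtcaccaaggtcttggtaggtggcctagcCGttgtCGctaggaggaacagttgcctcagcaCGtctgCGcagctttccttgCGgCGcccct
Airn: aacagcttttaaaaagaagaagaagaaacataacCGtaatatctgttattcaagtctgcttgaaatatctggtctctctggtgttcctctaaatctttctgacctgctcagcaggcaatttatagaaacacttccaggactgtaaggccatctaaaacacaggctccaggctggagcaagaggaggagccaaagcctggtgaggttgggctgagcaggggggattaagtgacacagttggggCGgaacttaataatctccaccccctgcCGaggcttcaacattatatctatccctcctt

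The Plagl1 window holds 26 CG pairs, that of Peg3 13, that of Kcnq1ot1 9 and that of Airn 3. The motif TGCCGC, the core that the imprint keeper Zfp57 binds when methylated, was searched for on both strands (GCGGCA in reverse). It was found once in the Plagl1 window and not in the other 3. Over all members, 36 of 44 had a RefSeq window, and 11 of their 56 windows (19.6%) held the motif, against 3813 of 32851 windows of all genes (11.6%). The median number of CG pairs was 13 in the members' windows and 7 in all. Genes can have several overlapping windows, so these are descriptions. No DNA methylation was measured in these libraries.

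**Figure D1:**
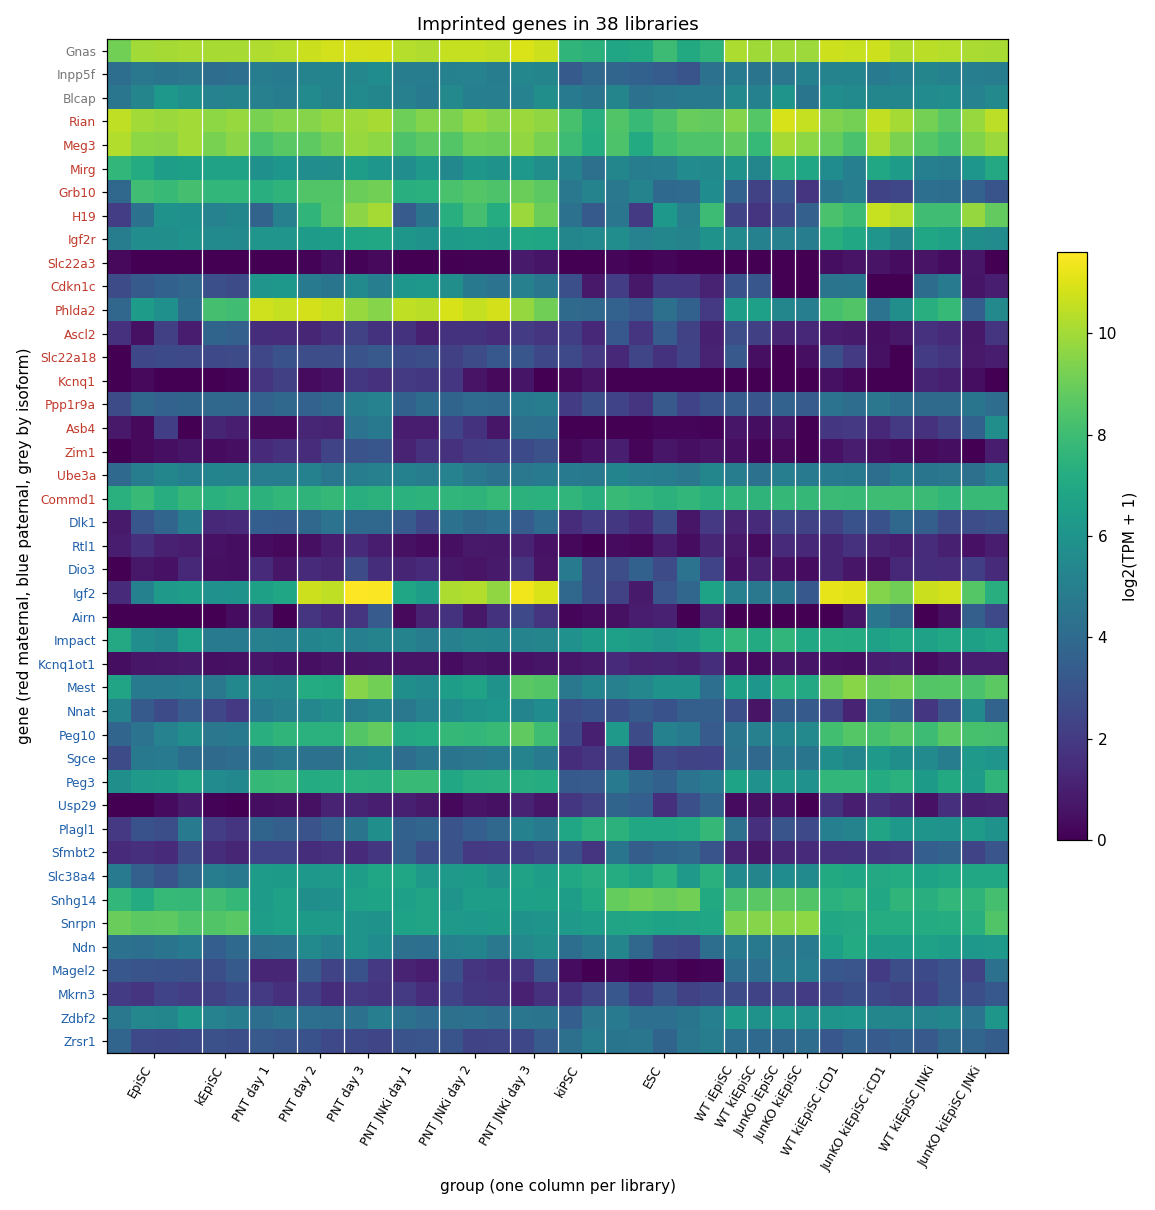
Level of each of 43 imprinted genes, as log2(TPM + 1), in 38 libraries. Columns are libraries ordered by group, and gene names are red for maternally expressed, blue for paternally expressed and grey for isoform-dependent genes. Igf2 and H19 are bright on day 3 of the transition, Phlda2 on days 1 and 2, and Snrpn in primed cells.

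Levels spanned a wide range. Slc22a3, an organic cation transporter, did not pass 1 TPM in any library (maximum 0.79 TPM) and was not tested. At the other end, Igf2 reached 3118 TPM, Gnas 1993 TPM and Phlda2 1906 TPM. Commd1, Mkrn3 and Slc22a18 were tested and called in none of the comparisons below. Commd1, a copper metabolism gene that holds Zrsr1 in an intron, stayed between 147.47 and 255.34 TPM in all 38 libraries.

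The first comparison asked which imprinted genes separate naive from primed cells. Between ESC and EpiSC, 24 of 38 tested members passed the threshold (edgeR, Benjamini-Hochberg adjusted p under 0.05 over all genes), with 7 higher and 17 lower in ESC. Of all 13923 genes tested, 50.9% were called, 27.1% higher and 23.8% lower. The median log2 fold change was -0.76 over the members and 0.02 over all genes. By allele, 0 of 13 maternally expressed members rose and 7 fell, while 7 of 22 paternally expressed members rose and 7 fell. The maternal count of 0 depended on the setting, since Ascl2 was called higher in ESC in 4 alternatives, among them without ESC replicate 5 (1.80, edgeR adjusted p = 0.0271).

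Plagl1 (GRCm38, chromosome 10, 13060504 to 13131694) encodes a zinc finger factor that regulates other imprinted genes. Its level was 122.2 to 208.2 TPM in ESC (median 136.5) and 2.79, 6.64, 5.95 and 27.4 TPM in the 4 EpiSC libraries. The groups did not overlap, and the log2 fold change was 3.75 ± 0.38 (SE; edgeR adjusted p = 5.76e-06). Slc38a4, an amino acid transporter, was at 75.8 to 171.7 TPM in ESC and 7.10 to 27.0 TPM in EpiSC, a log2 fold change of 3.19 ± 0.35. The thyroid hormone deiodinase Dio3 (3.84 ± 0.84), the polycomb gene Sfmbt2 (2.03 ± 0.45), the intronic splicing factor gene Zrsr1 (1.58 ± 0.34) and the antisense RNA Kcnq1ot1 (1.11 ± 0.22) completed the rises together with Usp29.

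In the Peg3 region the 2 neighbours differed. Usp29, a ubiquitin protease gene, was listed at 12.3, 9.90, 1.95, 6.24 and 12.9 TPM in ESC and at 0, 0, 0.26 and 0.81 TPM in EpiSC, which hold 4 counts in all. Its log2 fold change was 4.90 ± 0.82. Peg3 itself, a zinc finger gene, was at 11.2 to 26.0 TPM in ESC and 54.4, 76.1, 82.1 and 107.6 TPM in EpiSC, and fell by 2.10 ± 0.22 on the log2 scale. Each of the 2 genes separated the groups without overlap, in opposite directions, although both are paternally expressed and their RefSeq windows share 263 bases. The maternally expressed Zim1 of the same region stayed under 1 TPM in both groups and was not tested here.

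The Snrpn to Ube3a region on chromosome 7 was lower in ESC at several genes. Magel2, a MAGE family gene, was at 0.19, 0, 0.18, 0 and 0.09 TPM in ESC and at 6.41 to 7.98 TPM in EpiSC, with a fitted log2 fold change of -6.14 ± 0.59. Snrpn, which encodes the splicing protein SmN, was at 105.3 to 117.6 TPM in ESC against 498.5, 408.5, 428.8 and 338.6 TPM in EpiSC (-1.92 ± 0.13). Ndn and Mkrn3 of the same region were not called (-0.44 ± 0.48 and 0.70 ± 0.35), nor was Ube3a, which is imprinted in neurons (0.11 ± 0.20). For Snhg14, the long host transcript of small nucleolar RNAs, counts and TPM pointed in opposite directions. Its counts fell (-0.96 ± 0.12, edgeR adjusted p = 2.98e-05), while TPM was 462.0 to 558.0 in ESC replicates 1 to 4, 132.2 in ESC replicate 5 and 139.7 to 218.7 in EpiSC. ESC replicates 1 to 4 are the libraries with the other effective length, and Snhg14 was the only called member of the 24 whose mean TPM went against its counts.

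All 3 maternal non-coding RNAs of the Dlk1 to Dio3 region on chromosome 12 fell in ESC. Meg3 lay at 134.7 to 339.9 TPM in ESC and 767.4 to 1229 TPM in EpiSC (-1.65 ± 0.23). Rian, a host of small nucleolar RNAs (-1.57 ± 0.24), and Mirg, a host of microRNAs (-1.66 ± 0.30), fell by similar amounts. Of the paternally expressed genes there, Dlk1, which encodes a Notch-type ligand, also fell (-2.25 ± 0.71), Dio3 rose, and Rtl1 was not called (-0.92 ± 0.65). The fall of Dlk1 was -1.47 and not called without EpiSC replicate 4 (edgeR adjusted p = 0.111), and it was not called with the replicate block (-1.99, edgeR adjusted p = 0.0672).

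Among the growth restraints, Cdkn1c, the cell cycle inhibitor p57, was at 0.70 to 3.37 TPM in ESC and 5.24 to 13.3 TPM in EpiSC (-2.20 ± 0.55). Phlda2, which limits placental growth, fell as well (-1.88 ± 0.55), with overlapping groups. Grb10, an adaptor that restrains insulin and IGF signalling, was at 14.8 to 48.8 TPM in ESC and 259.9, 228.8 and 292.2 TPM in EpiSC replicates 2 to 4, but at 14.0 TPM in EpiSC replicate 1. Its log2 fold change was -2.97 ± 0.58, and -3.30 without EpiSC replicate 1. Gnas, the stimulatory G protein, fell from 568.5 to 1117 TPM in EpiSC to 117.5 to 250.2 TPM in ESC (-2.49 ± 0.23). The remaining calls were Sgce (-2.11), Ppp1r9a (-1.21), Zdbf2 (-1.07), Inpp5f (-0.995) and Blcap (-0.54), all lower in ESC. Blcap was called in 8 of 16 alternatives and lost its call without any 1 of ESC replicates 2, 3, 4 and 5 or EpiSC replicates 3 and 4 (-0.56 to -0.38).

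Igf2 (-0.65 ± 1.06) and H19 (0.98 ± 0.95) were not called between ESC and EpiSC. Igf2 was at 3.81, 0.77, 7.34, 13.4 and 104.4 TPM in ESC replicates 1 to 5, and at 1.63, 33.4, 77.2 and 88.1 TPM in EpiSC replicates 1 to 4. Among the ESC, replicate 5 also held the highest H19 (246.1 TPM, others 2.88 to 71.3 TPM). The sum of 11 fibroblast markers was 498.2 TPM in that library, with all 11 detected, against 8.44 to 45.0 TPM in the other ESC and 28.3 to 176.7 TPM in EpiSC. Their part in the Igf2 and H19 levels was not tested. Without ESC replicate 5, Igf2 was called lower in ESC (-2.92, edgeR adjusted p = 0.0134), and H19 turned to -0.34 without a call. Without both EpiSC replicate 1 and ESC replicate 5, 28 members were called, including all 24. The 4 added were Igf2 (-3.32), Igf2r (-0.46), Mest (0.91) and Ascl2 (1.93), and Grb10 was at -3.65. With all libraries Mest had the opposite sign (-0.32) and was not called. With ESC replicate 5 as the only ESC library, 15 were called, 14 of them among the 24, and none of the 24 changed sign. Plagl1, Usp29, Magel2, Peg3, Snrpn and Snhg14 kept their calls there, and Grb10 did not (-2.17, edgeR adjusted p = 0.177). H19 was called higher in ESC there (2.72, edgeR adjusted p = 0.0288), and Igf2 was at 1.36 without a call.

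The kiPSC and kEpiSC libraries gave a second naive against primed comparison with no library shared with the first. Of 42 tested members, 31 were called, 10 higher and 21 lower in kiPSC (57.5% of 14892 genes were called, 28.2% higher and 29.2% lower). Of 23 paternally expressed members 10 rose and 9 fell, and of 16 maternally expressed members 0 rose and 10 fell. Kcnq1, a maternally expressed gene with few counts, was called higher in kiPSC in 4 alternatives, among them DESeq2 (3.18) and without kEpiSC replicate 2 (5.12). Among the 38 members tested in both comparisons, 21 were called in both, which is 87.5% of the 24 called between ESC and EpiSC and 70.0% of the 30 called between kiPSC and kEpiSC. All 21 went the same way, 7 up and 14 down. This counts only members called in both, and the overlap over all genes was not computed.

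The 7 that rose in both were Plagl1, Usp29, Dio3, Slc38a4, Zrsr1, Sfmbt2 and Kcnq1ot1. Between kiPSC and kEpiSC, Kcnq1ot1 was called in 6 of 9 alternatives and Sfmbt2 in 7 of 9. Plagl1 was at 111.4 and 175.05 TPM in kiPSC against 3.37 and 2.38 TPM in kEpiSC (6.01 ± 0.45). Usp29 had 62 counts in kiPSC and 2 in kEpiSC, a ratio of 64.6 (95% counting interval 17.1 to 545). The 14 that fell in both included Phlda2 (-4.33 ± 0.24), Grb10 (-2.91 ± 0.16), Gnas (-2.68 ± 0.09), Peg3 (-2.41 ± 0.14), Snrpn (-2.30 ± 0.12) and Meg3 (-2.07 ± 0.26). Grb10 lay at 24.1 and 35.7 TPM in kiPSC and at 206.1 and 207.3 TPM in kEpiSC, below the levels of EpiSC replicates 2 to 4. Peg3 was at 8.66 and 8.99 TPM in kiPSC and 48.2 and 41.6 TPM in kEpiSC, so Peg3 and Usp29 again went in opposite directions.

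Called here and not between all ESC and EpiSC libraries were the falls of Peg10 (-3.08 ± 0.34), Igf2 (-2.79 ± 0.27), Ascl2 (-2.27 ± 0.40), Rtl1 (-1.92 ± 0.79), H19 (-1.52 ± 0.54) and Ube3a (-0.63 ± 0.20), and the rises of Impact (1.27 ± 0.14), Nnat (0.89 ± 0.37) and Ndn (0.66 ± 0.25). Rtl1 was called in 2 of 9 alternatives, Nnat in 4, Ube3a in 5, and H19 and Ndn in 6 each. Rtl1 lay at -6.62 without kiPSC replicate 1 and at -1.17 without kiPSC replicate 2, and it was not called by DESeq2 (adjusted p = 0.0590). Asb4, an ankyrin and SOCS box gene, had no count in kiPSC and 60 in kEpiSC, at least 9.60-fold lower. Between ESC and EpiSC, without calls, Ascl2 (1.51), H19 (0.98), Nnat (-0.87), Ndn (-0.44) and Ube3a (0.11) had the opposite sign. Peg10 (-0.23), Igf2 (-0.65), Rtl1 (-0.92) and Impact (0.13) had the same sign. Whether these genes differ between the 2 comparisons was not tested. Ascl2, a trophoblast factor, was at 12.6 and 10.8 TPM in kEpiSC and 0.45 to 3.53 TPM in EpiSC. The fibroblast markers summed to 51.2 to 129.1 TPM in kiPSC and 26.5 to 28.9 TPM in kEpiSC, with 8 of 10 tested higher and 1 lower in kiPSC. Their part in these results was not tested.

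**Figure D2:**
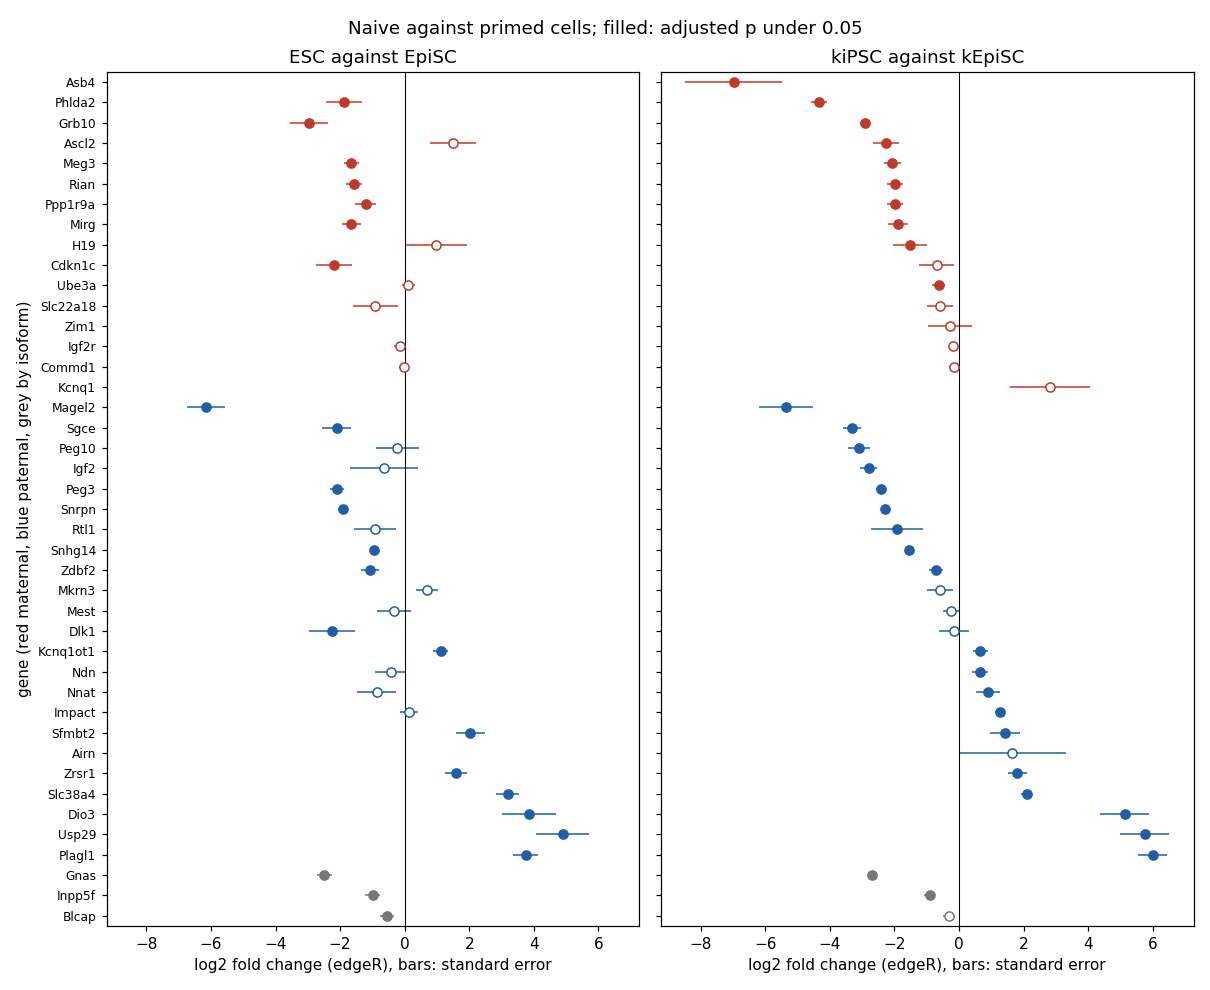
Log2 fold change of naive against primed cells for each tested imprinted gene, with ESC against EpiSC on the left and kiPSC against kEpiSC on the right. Bars are standard errors, filled points have an adjusted p under 0.05, and fitted values of genes without counts in one group depend on the prior count. All filled points above 0 are blue, that is paternally expressed, and filled points below 0 include red, blue and grey ones.

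Few members were called between the 2 primed groups or between the 2 naive groups. Between kEpiSC and EpiSC, 2 of 38 members were called, 1 higher and 1 lower, where 1.26% of genes were (0.941% higher, 0.323% lower). Phlda2 was higher in kEpiSC (286.5 and 261.6 against 13.1 to 83.9 TPM, log2 2.80 ± 0.60) and Plagl1 lower (-2.49 ± 0.52). Between kiPSC and ESC, 1 of 38 was called where 0.144% of genes were (0.0934% higher, 0.0503% lower), Snhg14 at -1.11 ± 0.16. With ESC replicate 5 as the only ESC library, Snhg14 lost its call (-0.93, edgeR adjusted p = 0.292). These comparisons share the EpiSC and ESC libraries with the one above. Leaving out either kEpiSC library (replicate 1 or 2) left 0 members called in the first, and leaving out either kiPSC library left 0 in the second.

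The proteins that write, keep and erase imprints were listed for reference. Between ESC and EpiSC, 10 of 21 rose and 4 fell, and between kiPSC and kEpiSC 11 rose and 6 fell. Of all genes tested, 27.1% rose and 23.8% fell in the first comparison, and 28.2% and 29.2% in the second. Zfp57, which keeps methylation at imprints, was at 298.75 to 492.11 TPM in ESC and 39.55 to 94.74 TPM in EpiSC (2.32 ± 0.20). The methyltransferase Dnmt3b fell (-2.76 ± 0.30), and the demethylase Tet2 rose (4.28 ± 0.31). Of imprinted genes outside the 44, 8 of 23 rose and 7 fell between ESC and EpiSC. Ddc and Cobl, which flank Grb10, rose by 5.27 ± 0.44 and 5.29 ± 0.26, while Grb10 fell.

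The second question was how the members moved during the transition itself. On PNT day 3 against kEpiSC, 28 of 42 members were called, 24 higher and 4 lower. The corresponding shares of all 14892 genes were 50.6% called, 25.2% higher and 25.4% lower, and the median log2 fold change was 1.12 over the members and 0.00 over all genes. By allele, 9 of 16 maternally expressed members rose and 1 fell, and 13 of 23 paternally expressed members rose and 3 fell. Rises on day 3 thus included both allele classes.

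Igf2 (chromosome 7, 142650766 to 142666816), the fetal growth factor, had the largest rise among members with more than 3 counts in each group. It was at 56.7 and 60.04 TPM in kEpiSC, 96.8 and 110.7 TPM on day 1, 1697 and 1425 TPM on day 2, and 3118 and 2946 TPM on day 3. In kiPSC it was at 13.6 and 5.93 TPM. The libraries of successive stages did not overlap, and the level rose by 5.60 ± 0.26 on the log2 scale to day 3 and then fell by 8.39 ± 0.31 to kiPSC. H19, its maternally expressed non-coding neighbour, was at 34.2 and 39.5 TPM in kEpiSC, 12.15 and 32.25 TPM on day 1, 191.7 and 356.3 TPM on day 2 and 772.5 and 1044 TPM on day 3. H19 rose by 4.31 ± 0.52 to day 3 and then fell by 5.83 ± 0.59 to kiPSC, where it was at 19.9 and 8.73 TPM. Both genes, of opposite alleles, were thus at their highest on day 3 of these 5 stages.

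Mest, a hydrolase-like gene, was at 23.8 and 41.7 TPM in kEpiSC, 42.8 and 39.8 TPM on day 1, 141.7 and 132.4 TPM on day 2, and 729.4 and 563.1 TPM on day 3 (4.31 ± 0.26). Peg10, a retrotransposon-derived gene needed in placenta, was already at 158.6 and 195.0 TPM on day 1, from 23.3 and 24.99 TPM in kEpiSC, and at 365.7 and 447.4 TPM on day 3 (3.84 ± 0.30). Sgce, whose start lies 98 bases from that of Peg10 on the other strand, rose by 0.83 ± 0.21. Asb4 (4.04 ± 0.50) and Ppp1r9a (0.85 ± 0.23), maternally expressed genes of that region, rose too. In kiPSC Peg10 was at 4.71 and 1.06 TPM (-6.93 ± 0.37 against day 3), and Asb4 had no count, at least 157-fold below day 3.

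Phlda2 and Cdkn1c, both maternally expressed in the Kcnq1 region, were at their highest before day 3. Phlda2 was at 1722 and 1528 TPM on day 1, 1830 and 1608 TPM on day 2, 895.7 and 732 TPM on day 3 and 15.05 and 13.6 TPM in kiPSC. Cdkn1c was at 6.06 and 5.37 TPM in kEpiSC, 65.2 and 72.9 TPM on day 1, 26.8 and 21.9 TPM on day 2 and 43.98 and 30.45 TPM on day 3. Against kEpiSC, day 3 was higher by 1.35 ± 0.17 for Phlda2 and 2.49 ± 0.46 for Cdkn1c. Kcnq1, the potassium channel, had 19 counts on day 3 and 2 in kEpiSC (ratio 24.2, 95% counting interval 5.84 to 214). Ascl2 of the same region fell (-2.10 ± 0.40), and Kcnq1ot1, which overlaps Kcnq1 on the other strand, stayed at 0.38 to 0.64 TPM from kEpiSC to day 3. The labels and the methods name different library kits and neither states a stranded protocol, so strand was taken as not marked. Reads of such overlapping pairs were then not told apart, also for Igf2r and Airn.

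Peg3 was at 211.3 and 229.6 TPM on day 1 and at 164.8 and 159.5 TPM on day 3, above both kEpiSC libraries (1.65 ± 0.13), before the low level of kiPSC (-4.07 ± 0.15 against day 3). Zim1 rose to 6.81 and 7.56 TPM on day 3 (4.28 ± 0.47), and Usp29 to 1.31 and 0.99 TPM, with 18 counts against 2 (ratio 22.9, interval 5.49 to 204). Plagl1 was at 12.55 and 10.6 TPM on day 1, 6.94 and 10.7 TPM on day 2 and 20.9 and 54.25 TPM on day 3 (3.82 ± 0.43), and higher again in kiPSC (2.19 ± 0.37). Igf2r, the receptor that clears IGF2, was at 44.1 and 43.6 TPM in kEpiSC and 115.9 and 124.4 TPM on day 3 (1.22 ± 0.09). Airn, its paternal antisense RNA, had 24 counts on day 3 and 1 in kEpiSC (ratio 61.1, interval 9.97 to 2514), so both members of this opposite-allele pair were higher on day 3.

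Snrpn was already low on day 1. It was at 349.4 and 402.0 TPM in kEpiSC, 88.6 and 97.7 TPM on day 1 and 63.9 and 60.9 TPM on day 3 (-2.82 ± 0.13), and at 74.3 and 90.7 TPM in kiPSC. Snhg14 fell with it (-1.55 ± 0.13), while Ndn of the same region rose (1.98 ± 0.24). Zdbf2 was the remaining fall (-0.59 ± 0.23) and was called in 4 of 9 alternatives. The other rises on day 3 were Nnat (3.49 ± 0.31), Dio3 (2.84 ± 0.81), Dlk1 (2.65 ± 0.38), Slc38a4 (1.77 ± 0.17), Grb10 (1.14 ± 0.15), Inpp5f (1.09 ± 0.16) and Gnas (0.53 ± 0.09). Meg3, Rian and Mirg were not called on day 3, and Meg3 was at 617.8 and 768.9 TPM in kEpiSC, 311.3 and 400.5 TPM on day 1 and 888.1 and 793.4 TPM on day 3.

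From day 3 to kiPSC, 32 of 42 members were called, 7 higher and 25 lower, where 57.9% of all genes were called (29.3% higher, 28.6% lower). All 7 that rose are paternally expressed: Zrsr1 (2.42), Dio3 (2.29), Plagl1 (2.19), Usp29 (1.55), Sfmbt2 (1.54), Impact (1.15) and Snrpn (0.52). Of 23 paternally expressed members 11 fell, and of 16 maternally expressed members 0 rose and 11 fell. Usp29 was called in 4 of 9 alternatives, and Dio3 and Sfmbt2 in 7 of 9. This comparison shares the day 3 libraries with the one above. Markers of other cells moved over the same stages. The fibroblast markers summed to 26.5 to 28.9 TPM in kEpiSC, 149.2 to 154.7 TPM on day 3 and 51.2 to 129.1 TPM in kiPSC, with 6 of 10 tested higher on day 3. The collagen genes Col1a1 and Col1a2 were at 8.30 to 19.4 TPM on day 3, and Lum was at 0. Trophoblast markers summed to 142.0 to 166.6 TPM in kEpiSC, 603.5 to 694.5 TPM on day 1 and 198.1 to 231.5 TPM on day 3 (5 of 8 higher), and mesoderm markers to 2.05 to 2.39, 387.8 to 391.3 and 19.5 to 23.8 TPM. Hand2 was at 0 on day 3, Hand1 at 1.23 to 1.39 TPM and Cdx2 at 50.6 to 51.2 TPM. The part of these cells in the members' levels was not tested.

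**Figure D3:**
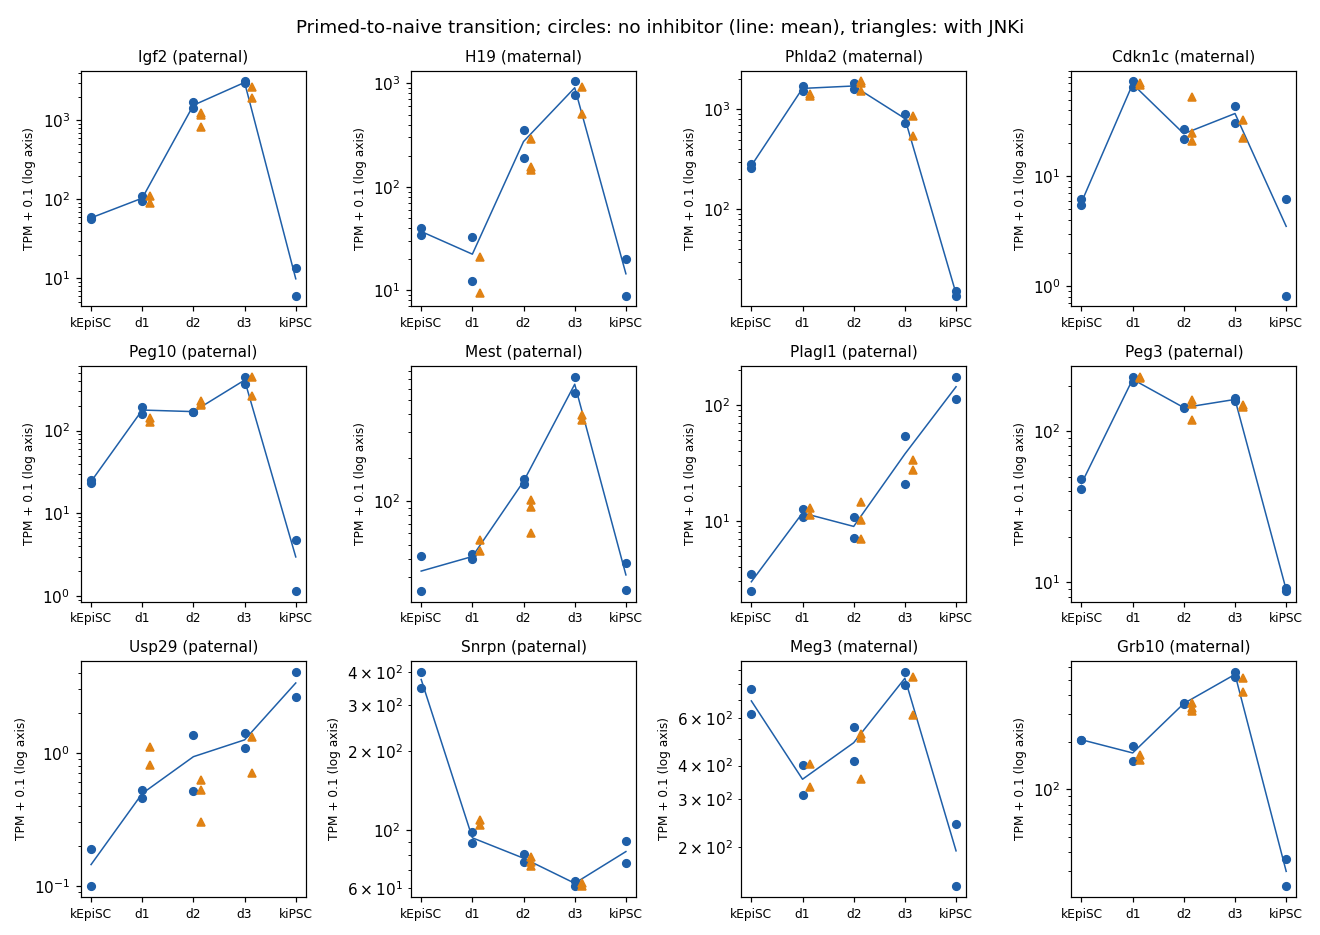
TPM plus 0.1, on log axes, of 12 imprinted genes in kEpiSC, on days 1 to 3 (d1 to d3) of the transition and in kiPSC. Circles are libraries without inhibitor, lines join their means and triangles are libraries with JNKi. Igf2, H19, Mest and Peg10 peak on day 3, Phlda2 and Cdkn1c are high from day 1, and Plagl1 and Usp29 are highest in kiPSC.

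WT kiEpiSC taken through iCD1 in the c-Jun experiment gave separate libraries of the same transition. Primed WT cells are 1 iEpiSC and 1 kiEpiSC library, and the fit refers to the kiEpiSC level. On day 3 against them, 20 of 38 members were called, 18 higher and 2 lower, with 27.5% of 13152 genes called (14.4% higher, 13.1% lower). Of the 38 members tested in both experiments, 18 were called in both, 72.0% of the 25 called in PNT and 90.0% of the 20 called in WT cells. All 18 went the same way (16 up, 2 down). The overlap over all genes was not computed. Igf2 was at 32.7 and 23.8 TPM in WT iEpiSC and kiEpiSC and at 2294 and 2206 TPM on day 3 (6.76 ± 0.46). H19 went from 4.16 and 2.51 to 310.5 and 236.6 TPM (6.48 ± 0.55). Snrpn fell from 645.4 and 721.7 to 120.8 and 125.5 TPM (-2.63 ± 0.29), and Snhg14 fell with it (-1.46 ± 0.20). Grb10 was at 11.4 and 3.79 TPM in these primed WT cells, far from the 206.1 and 207.3 TPM of kEpiSC, and at 22.4 and 30.0 TPM on day 3. The fibroblast markers summed to 42.76 to 56.99 TPM in these primed cells and 220.5 to 220.7 TPM on day 3, with 7 of 8 higher. Without the WT kiEpiSC library 7 members were called.

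The inhibitor of JNK gave no called member on any day. In edgeR 0 of 42 were called on days 1, 2 and 3, where 0%, 0.00672% and 0% of all genes were, and DESeq2 also called 0. At an unadjusted p under 0.05 there were 1, 3 and 2 members, where 5% of 42 is 2.1. The lowest such p on days 2 and 3 belonged to Mest, which was at 141.7 and 132.4 TPM without and 91.0, 102.6 and 60.5 TPM with JNKi on day 2 (log2 -0.62 ± 0.21), and at 729.4 and 563.1 against 398.2 and 364.0 TPM on day 3 (-0.79 ± 0.23). The libraries did not overlap on either day, but the edgeR adjusted p was 1 each time. Igf2 with JNKi was at 1169, 1240 and 828.8 TPM on day 2 and 2649 and 1954 TPM on day 3, below the untreated libraries on both days (log2 -0.55 ± 0.19 and -0.41 ± 0.21, adjusted p = 1). H19 overlapped between treatments on each of the 3 days.

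The third question was what differed between JunKO and WT cells. On day 3 in iCD1, 8 of 38 members were called, 3 higher and 5 lower in JunKO, where 1.57% of 13152 genes were called (1.35% higher, 0.22% lower). Without a low-count filter the split was 8 higher and 6 lower, and with the replicate block 5 and 5. The share among the tested members was 21.1%. The median log2 fold change was -0.06 over the members and 0.00 over all genes, so the calls went both ways. The 5 that were lower were Cdkn1c, Phlda2, Grb10, Igf2r and Igf2, and the 3 that were higher were H19, Airn and Rian. Of the lower genes, 4 are maternally expressed growth restraints and Igf2 is the paternally expressed growth factor.

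In the H19 and Igf2 region the 2 genes moved in opposite directions. Igf2 was at 700.2 and 537.5 TPM in JunKO and 2294 and 2206 TPM in WT (-1.85 ± 0.31, edgeR adjusted p = 0.0202). H19 was at 1592 and 1277 TPM in JunKO and 310.5 and 236.6 TPM in WT (2.40 ± 0.29, edgeR adjusted p = 0.00677). Neither gene overlapped between genotypes. The ratio of Igf2 to H19 in TPM was 0.440 and 0.421 in JunKO against 7.39 and 9.32 in WT. In primed cells, by library, it was 4.45 in JunKO iEpiSC, 0.7665 in JunKO kiEpiSC, 7.87 in WT iEpiSC and 9.47 in WT kiEpiSC. It was 0.103 to 0.424 in ESC, where both genes had lower levels. In the other groups it was 0.687 and 0.679 in kiPSC, 0.494 to 1.70 in EpiSC and 4.04 and 2.82 on PNT day 3, among others. These ratios were not tested.

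The Igf2r and Airn region also split. Igf2r was at 65.3 and 37.96 TPM in JunKO and 152.0 and 121.5 TPM in WT (-1.41 ± 0.22, edgeR adjusted p = 0.0188). Airn was at 22.6 and 14.1 TPM in JunKO and at 0 and 0.60 TPM in WT, with 55 counts against 1, a ratio of 49.5 (95% counting interval 8.52 to 1990.5). These JunKO libraries held the highest Airn levels of all 38 libraries. The edgeR adjusted p of Airn was 0.0496 and rose to 0.0536 with RLE size factors. Airn was called in 3 of the 8 alternatives that gave it a value, and lost its call without any 1 of the 4 libraries (log2 4.54 to 7.75).

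Cdkn1c (chromosome 7, 143458339 to 143461050) had no count in either JunKO library on day 3 in iCD1 and 125 counts in WT (20.8 and 21.7 TPM), at least 46.3-fold lower with 3 counts set over the group. It was called under every alternative that gave a value. Phlda2, its neighbour, was at 20.55 and 51.65 TPM in JunKO and 298.5 and 351.3 TPM in WT (-3.13 ± 0.45). Kcnq1ot1, the paternal antisense RNA of that region, was at 0.83 and 1.04 TPM in JunKO and 0.46 and 0.40 TPM in WT, a log2 fold change of 1.11 ± 0.30 that missed the threshold (edgeR adjusted p = 0.112). Grb10 was at 4.27 and 4.50 TPM in JunKO against 22.4 and 30.0 TPM in WT (-2.60 ± 0.27).

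In the Dlk1 to Dio3 region, Rian was at 1504 and 1065 TPM in JunKO and 658.7 and 583.8 TPM in WT (1.09 ± 0.24, edgeR adjusted p = 0.0496). It was called in 3 of 9 alternatives, and lost its call with RLE size factors (edgeR adjusted p = 0.0540), in the fit of all 38 libraries (0.0992) and without any 1 of the 4 libraries. Meg3 (1.13 ± 0.29, adjusted p = 0.0874) and Mirg (1.31 ± 0.36, adjusted p = 0.116) had fold changes of similar size without a call. Plagl1 was at 108.9 and 72.0 TPM in JunKO and 31.6 and 35.6 TPM in WT (1.06 ± 0.28, adjusted p = 0.0961). Nnat was at 22.5 and 14.7 TPM against 4.33 and 1.18 TPM (3.15 ± 0.88, adjusted p = 0.120). Mest, Peg10 and Peg3, which rose strongly to day 3 in WT cells, were not called between genotypes, and Mest was at 515.7 and 579.5 TPM in JunKO and 520.7 and 742.9 TPM in WT.

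Other markers differed on the same day. The pluripotency markers summed to 316.4 and 559.96 TPM in JunKO and 91.25 and 168.1 TPM in WT, and the naive markers to 140.25 to 228.7 against 29.5 to 45.7 TPM. Primed markers, among them Fgf5 and Otx2, summed to 635.0 and 186.2 TPM in JunKO and 228.6 and 185.4 TPM in WT. The fibroblast sum was 171.4 to 225.8 TPM in JunKO and 220.5 to 220.7 TPM in WT with 0 of 8 called, and the trophoblast sum 163.6 to 250.04 against 134.6 to 139.4 TPM with 1 of 5 called, lower in JunKO. Of the 21 genes for imprint proteins, 2 were called higher in JunKO and 0 lower. RNA of Ctcf, whose protein insulates Igf2 from its enhancers at the unmethylated H19 region, was higher in JunKO (122.3 and 132.2 against 83.0 and 80.5 TPM, 0.70 ± 0.12). Dnmt3l was at 4.13 and 10.6 TPM against 0 in both WT libraries. The part of these genes in the Igf2 and H19 levels was not tested. None of the 19 other imprinted genes tested was called. The part of the different mix of cells in these results was not tested.

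With JNKi on day 3, 6 of 38 members were called between JunKO and WT, 2 higher and 4 lower, where 0.935% of genes were called (0.646% higher, 0.289% lower). The larger direction turned to 11 higher and 6 lower without a low-count filter, 7 and 5 with the replicate block, and 8 and 6 without JunKO replicate 1. These libraries are separate from those in iCD1 alone. Igf2 was at 372.0 and 156.65 TPM in JunKO and 1629 and 1819 TPM in WT (-2.79 ± 0.32). Cdkn1c had 5 counts in JunKO and 141 in WT (-4.76 ± 0.48). Phlda2 (-2.91 ± 0.48) and Igf2r (-1.12 ± 0.22) were lower again and Rian higher (1.19 ± 0.24), which was called in 4 of 9 alternatives. H19 was at 884.0 and 445.15 TPM in JunKO and 260.3 and 262.0 TPM in WT without a call (1.28 ± 0.28, edgeR adjusted p = 0.0616). Airn had 28 counts against 1 (ratio 27.1, interval 4.48 to 1108, edgeR adjusted p = 0.109). Asb4 was at 11.3 and 52.0 TPM in JunKO and 2.15 and 3.53 TPM in WT (3.22 ± 0.64), whereas in iCD1 alone it was at 1.46 and 2.87 against 2.57 and 2.77 TPM. Without JunKO replicate 2 the fold change of Asb4 with JNKi was 1.82 and not called (edgeR adjusted p = 0.172), nor was it called without either WT library or in the fit of all 38 libraries (0.0520). Grb10, at 11.5 and 7.11 against 18.1 and 17.3 TPM, was not called with JNKi (-0.87 ± 0.25). In these libraries the pluripotency markers summed to 809.7 and 891.2 TPM in JunKO and 373.9 and 558.5 TPM in WT, and the fibroblast markers to 88.0 to 177.6 against 222.4 to 242.6 TPM with 0 of 8 called. The naive markers summed to 410.4 and 219.6 TPM in JunKO and 141.0 and 202.1 TPM in WT. The primed markers summed to 1114 and 735.05 TPM in JunKO and 475.7 and 426.5 TPM in WT. Endoderm markers summed to 43.95 and 119.4 TPM in JunKO and 14.4 and 14.9 TPM in WT, and trophoblast markers to 294.7 and 405.4 against 200.55 and 205.6 TPM, with 1 of 5 called in each list, higher in JunKO. Their part in the members' levels was not tested.

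Whether the JunKO effect differed between the media was tested as an interaction, and 0 of 38 members were called by edgeR or by DESeq2 (0% of all genes by edgeR). At an unadjusted p under 0.05 there were 7, where 5% of 38 is 1.9. The lowest belonged to Grb10, whose JunKO effect was 1.73 ± 0.37 higher with JNKi than without (edgeR adjusted p = 0.855).

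In primed cells, before iCD1, 2 of 38 members were called between genotypes, 1 higher and 1 lower in JunKO, where 0.335% of genes were (0.205% higher, 0.129% lower). Cdkn1c had no count in JunKO iEpiSC or kiEpiSC and 43 in the WT libraries (6.52 and 7.48 TPM), at least 14.3-fold lower. Rian was at 1896 and 1523 TPM in JunKO and 689.3 and 368.6 TPM in WT (1.66 ± 0.24, edgeR adjusted p = 0.0169), with Meg3 at 1.54 ± 0.29 (adjusted p = 0.0656) and Mirg at 1.60 ± 0.35 (adjusted p = 0.0949) beside it. Igf2 (-1.18 ± 0.44), Igf2r and Grb10 were not called, and H19 stayed at 2.51 to 10.6 TPM in all 4 libraries. Airn was listed at 0 in all 4. The primed test sets 2 JunKO libraries of different lines against 2 WT libraries, and no call was left when any 1 of the 4 was left out.

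**Figure D4:**
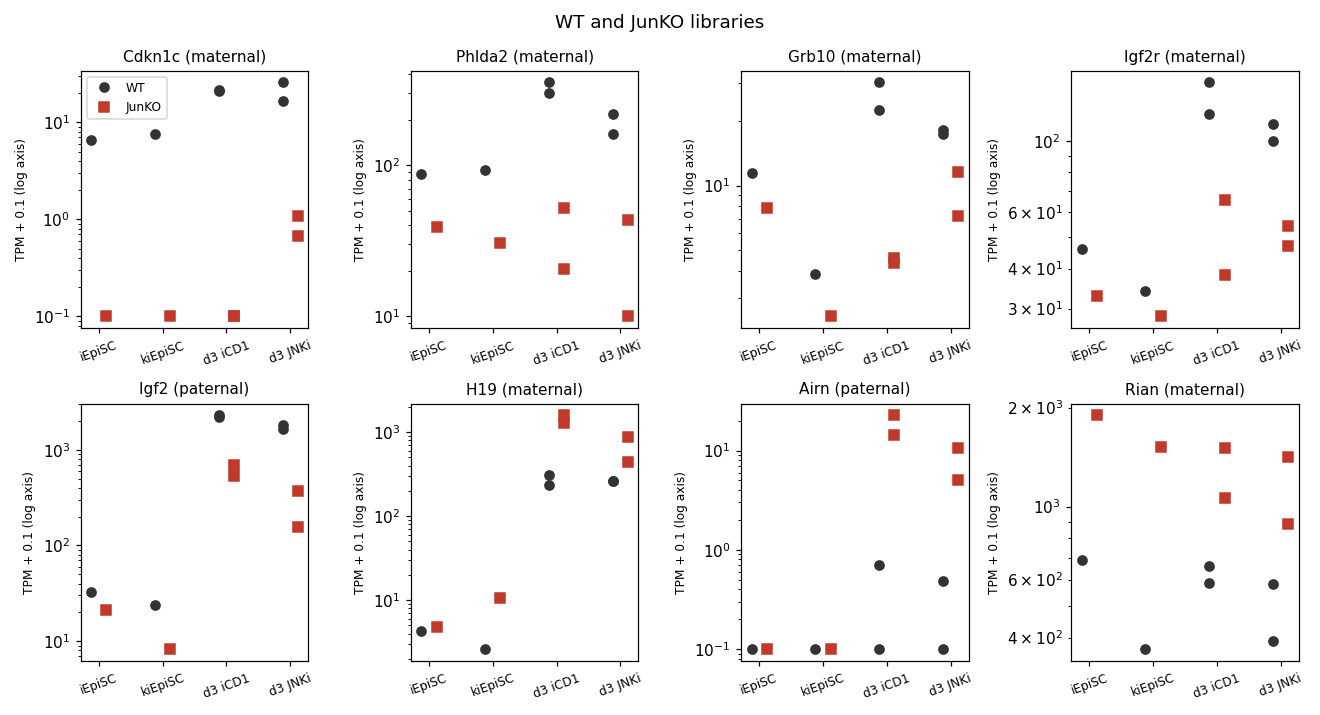
TPM plus 0.1, on log axes, of 8 imprinted genes in each WT (black circles) and JunKO (red squares) library, for primed iEpiSC and kiEpiSC (1 library each) and for day 3 in iCD1 or with JNKi (2 each). Cdkn1c sits at the offset in JunKO primed cells and on day 3 in iCD1, and H19 and Airn are higher in JunKO while Igf2 and Igf2r are lower on day 3.

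Leaving out single libraries moved the day 3 counts. In iCD1, 2 members were called without either WT library (replicate 1 or 2), 4 without JunKO replicate 2 and 6 without JunKO replicate 1, and 4 in one fit of all 38 libraries. With JNKi, 0 were called without either WT library, 5 without JunKO replicate 2 and 14 without JunKO replicate 1. Over the alternatives for day 3 in iCD1, H19 lay between 2.23 and 2.62 and was called in 6 of 9, Igf2 lay between -1.99 and -1.72 and was called in 5 of 9, and Grb10 lay between -2.71 and -2.47 and was called in 8 of 9. Phlda2 lay between -3.98 and -2.62 (called in 7 of 9), Igf2r between -1.84 and -1.07 (6 of 9) and Rian between 0.85 and 1.31.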

How the data were processed

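RNA-seq of 38 libraries was analysed from the authors' gene tables (bcl2fastq, Bowtie2 and RSEM on mm10, no versions stated; strand was taken as not marked). The authors deposited expected counts, TPM and FPKM per gene and library. FPKM was not used. The members, lists and tests were chosen with earlier results of these data known. Expected counts were rounded to whole numbers and tested with edgeR 4.0.16 (R 4.3.3; quasi-likelihood F test, TMM, filterByExpr with a minimum count of 10). P-values were adjusted (Benjamini-Hochberg) over all genes tested, threshold 0.05, and standard errors were derived from each log2 fold change and its F statistic. The first fit held the 4 reference groups, ESC, EpiSC, kEpiSC and kiPSC (13 libraries, 9 residual degrees of freedom). The second fit held kEpiSC, kiPSC and the PNT libraries (17, 9 degrees of freedom), and the third the WT and JunKO libraries (12, 5 degrees of freedom, with a term for the line of primed cells). Deposited TPM values were used for levels. A bound sets 3 counts over a group without counts, and 95% intervals (exact, on counts) cover counting error only. Members were named by the size of their change and read by region. Symbols and coordinates were from GENCODE M21 (GRCm38). The procedure was tested on simulated data. The results were recomputed with DESeq2 1.42.0, RLE size factors, no low-count filter, 1 fit of all 38 libraries, the replicate number as a block and each library left out. Python 3.11.15 and matplotlib 3.10.9 were used for tables and plots.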

Additional observations from a re-analysis of the deposited data

Results flagged for a closer look

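In groups of 4 or more libraries, 75 combinations of gene and group were searched for a library far from the rest, and 10 were found. Chance gives about 1 in 20. ESC replicate 5 stood apart for H19 at 246.09 TPM (others 2.88 to 71.29), Igf2 at 104.36 TPM (others 0.77 to 13.36) and Snhg14 at 132.21 TPM (others 462.04 to 557.96). For Snhg14, the others are the ESC libraries quantified with another effective length. Between ESC and EpiSC its counts fell while its mean TPM rose, so this flag may reflect the quantification of those libraries. EpiSC replicate 1 stood apart for Rian at 1449.45 TPM (others 939.95 to 1018.65), Nnat at 35.67 TPM (others 5.27 to 9.03), Mest at 109.91 TPM (others 25.98 to 29.36), Zrsr1 at 12.98 TPM (others 4.81 to 5.06) and Slc22a18, listed at 0.0 TPM (others 4.76 to 5.15). EpiSC replicate 4 stood apart for Plagl1 at 27.4 TPM (others 2.79 to 6.64) and Sfmbt2 at 5.51 TPM (others 1.64 to 1.98).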

How the results depend on the processing

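Members called, by edgeR unless stated, are counted here. No called member changed sign in any alternative that gave it a value, but uncalled members did. Between ESC and EpiSC these included Igf2 with ESC replicate 5 alone and H19 without it. Without EpiSC replicate 1, Mest turned from -0.32 to 0.77 and Nnat from -0.87 to 0.58. With ESC replicate 5 alone, Ascl2 turned from 1.51 to -0.76, Rtl1 from -0.92 to 0.16 and Igf2r from -0.16 to 0.33. The balance of calls for JunKO moved from 3 higher and 5 lower in iCD1, and 2 and 4 with JNKi, to 8 and 6 and to 11 and 6 without a low-count filter. Between kEpiSC and EpiSC DESeq2 called 5 and the fit of all 38 libraries 8, against 2. Between kiPSC and ESC DESeq2 called 2, and ESC replicate 5 as the only ESC library gave 0, against 1. That setting gave 15 between ESC and EpiSC, against 24. It and the joint omission of EpiSC 1 and ESC 5 were chosen after seeing the data. Without a low-count filter JNKi gave 3 on PNT day 2 and 2 on day 3, JunKO gave 10 in primed cells, 14 on day 3 in iCD1 and 17 with JNKi, and the difference between media 8. DESeq2 called 4 for JunKO in primed cells. The fit of all 38 libraries called 4 for JunKO in iCD1 and 3 with JNKi. The replicate numbers were not shown to pair the libraries. Correlations of deviations were -0.05 to 0.06 over the 4 ESC and EpiSC pairs, with no more than 2 pairs elsewhere. They were 0.30 for JunKO against WT on day 3 in iCD1 and 0.07 with JNKi. For JNKi they were 0.19 on PNT day 1 and 0.16 to 0.25 on day 2, and in the other comparisons checked 0.003 to 0.11. With the replicate block JunKO gave 5 in primed cells and 12 with JNKi, and the other counts stayed within 1.5 times. Leaving out 1 library gave 22 to 25 for ESC against EpiSC, 0 to 3 for kEpiSC against EpiSC, 0 to 1 for kiPSC against ESC, 26 to 30 for kiPSC against kEpiSC, 26 to 27 for PNT day 3 against kEpiSC, 30 to 31 for kiPSC against PNT day 3, 0 to 0 for JNKi on each day, 7 to 16 for WT day 3, 0 to 0 for JunKO in primed cells, 2 to 6 for JunKO in iCD1, 0 to 14 with JNKi and 0 to 6 for the difference between media, with 6 without JunKO JNKi replicate 1. The causes were not tested. Where 1 library of an arm was left, it was assumed to vary like the other groups. Few reads limit Airn, Usp29, Kcnq1 and Asb4.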
